A study of Mus musculus with 319 samples.

Results

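The subject here is the set of microarray probes that most often came without a measurement. Of 23382 probes in the deposited table of ratios, 192 (0.821%) had no value on more than 20% of the 319 arrays. They were chosen by counting the empty entries of each probe, so the number of blanks, the classes they fall in and their coincidence are given below as descriptions without tests. The 319 arrays carry 318 different animal numbers, since 2 share the number 227. Each array compared muscle RNA from 1 F2 mouse, bred from the C57BL/6J and C3H/HeJ strains, with a pool of RNA from all the animals. Both parental strains, and so every animal, were on an ApoE null background, and males and females were included. Between the ages of 8 and 24 weeks all received a fat-rich "Western" diet. The labels give no untreated, wild-type or otherwise contrasted animals, so there was 1 group, and the muscle that was sampled is not named. Per the labels the animal's RNA carried Cy3 and the pool Cy5. Ratios are given as log2 of animal over pool, a direction taken from the Y-linked genes, since Eif2s3y lay at a median of -5.62 on 164 arrays and at 1.08 on the other 155. A ratio to a pool of the same tissue gives no level, so the muscle label itself could not be checked against its markers.

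Skeletal muscle devotes a large part of its messenger RNA to few genes. These encode the proteins of the sarcomere, which contracts, the enzymes that make and buffer ATP for contraction, and the subunits of the mitochondrial respiratory chain. Ribosomal protein genes are among the most abundant messages of nearly every cell. Fast fibres, which rely on glycolysis, and slow fibres, which rely on oxidation, use different isoforms of troponin, myosin light chain and the calcium pump.

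The 192 probes held 36147 of the 48751 blanks of the whole table, or 74.1%. Among all values of the 319 arrays 0.654% of values were missing and 20457 probes had no blank at all. Within the 192 probes 59.0% of values were missing. A probe of the set was blank on 64 to 318 arrays with a median of 188, and none was blank on every array. On more than 50% of arrays 112 of them were blank, and 34 were blank on more than 90%. The threshold fell in a continuous range. Just inside it were Rps7 with 64 blanks and Plaat3 and Pax3 with 65 each, and just outside it were Rpl8 and Cox7c with 63 each. A gene symbol was given for 121 of the probes. Of these, 118 matched the RefSeq table and belonged to 108 genes, and 71 probes had no symbol. For 76 of these genes no probe lay outside the set. The other 32 also had probes outside it, so the blanks given below are those of single probes.

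Genes of the contractile and energy machinery of muscle made up 30 of the 121 named probes. Fast contractile proteins had the highest share, with 6 of the 8 probes on the array for that list and a median of 274 blank arrays per probe, beside medians of 268.5 for energy enzymes, 243 for respiratory chain subunits, 222.5 for ribosomal proteins and 137.5 for probes named in no list. Tnnt3, the fast troponin T, was blank on 297 arrays, Mylpf, the fast regulatory myosin light chain, on 290, and Tnni2, the fast troponin I, on 289. Pvalb, which encodes the calcium buffer parvalbumin, was blank on 259 arrays, Tnnc2, the fast troponin C, on 234, and Atp2a1, the fast calcium pump of the sarcoplasmic reticulum, on 188. None of the 14 probes for slow fibre isoforms was in the set. At the overall share of 0.821% a list of that size would mostly hold none. Structural proteins of the sarcomere contributed 9 of 35 probes. Among them Myoz1, a protein of the Z-disc, was blank on 314 arrays, Smpx on 304, Cmya5 on 286 and Ankrd23 on 269. Actn2, the Z-disc actinin, was blank on 210 arrays and Myot on 185. The probes of the giant proteins nebulin (Neb, 166 arrays) and titin (Ttn, 74 arrays) were blank less often, as was Ldb3 with 67. Of 25 probes for excitation and contraction coupling only Cacna1s, the voltage sensor of the transverse tubule, was in the set, with 145 blanks.

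Enzymes that supply ATP, with the oxygen store myoglobin, gave 14 of 87 probes, from 13 genes. The AMP deaminase Ampd1 was blank on 315 arrays. Glycolytic enzymes followed, with Ldha blank on 313 arrays, Pgam2 on 306, Tpi1 on 305 and Eno3 on 293. The mitochondrial creatine kinase Ckmt2 was blank on 305 arrays and adenylate kinase Ak1 on 291. The adenylosuccinate synthase Adssl1 was blank on 246 arrays. Pkm was blank on 236 arrays, Pgk1 on 233 and the muscle creatine kinase Ckm on 218. The other probes of Ldha, outside the set, were each blank on at most 4 arrays, and those of Pkm and Pgk1 on 0. Aldolase A had 1 probe blank on 175 arrays and 1 on 133, and Mb, which encodes myoglobin, was blank on 77. Respiratory chain and ATP synthase subunits gave 14 of 30 probes. Atp5a1 was blank on 310 arrays, Cox5a on 308, Cox6a2, the muscle isoform of a cytochrome oxidase subunit, on 304 and Atp5b on 299. The probes of Atp5k were blank on 307 and 284 arrays, Atp5e on 277 and Atp5j on 209, and Cox7b was lowest with 98.

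Ribosomal proteins gave 18 of 191 probes, from 13 genes. Rplp1 was blank on 313 arrays, Rpl10 on 310, Rps18 on 309 and 306 at its probes, and Rplp0 on 293. Rps12 was blank on 268 arrays, Rpl14 on 267 and Rpl27 on 262. At the other end Rps6 was blank on 84 and Rps7 on 64. Ribosomal protein genes have many near-identical pseudogene copies, and whether a probe also reads these was not tested. The translation elongation factor Eef2 was blank on 307 arrays, Naca on 188 and Tpt1 on 142. Outside the set, the other probes of Rpl10 and Eef2 were blank on 0 arrays. Fth1, the ferritin heavy chain, had 1 probe blank on 318 arrays and another blank on 258. Fabp4, the fatty acid carrier of fat cells, was the only adipocyte probe in the set, of 14 on the array, with 233 blanks.

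Several lists gave no probe to the set, among them those of lymphocyte (19 probes), macrophage (13), neutrophil (13), keratinocyte (14), liver (11), globin (5) and extracellular matrix (18) genes. At the overall share of 0.821% lists of this size would mostly hold none. None of the 348 probes for olfactory receptors was in it either. Outside the lists, 52 of 12708 named probes (0.409%) were in the set. Those blank most often were Hnrnpab, an RNA-binding protein (318), Rtn2 (312), Ndufa13, a subunit of respiratory complex I (298), Lamp1, a lysosomal membrane protein (276), Unc45b, a myosin chaperone of muscle (272), Pebp1 (270), Ino80d (265) and Chchd10, a mitochondrial protein (254). Some are further genes of muscle metabolism, such as Slc2a4, the insulin-responsive glucose transporter (251 blanks), Idh3b (190), Suclg1 (165), Pdk4 (121) and Acadvl (103). Others are genes known for other tissues, such as Pax3, a transcription factor of embryonic muscle progenitors and neural crest (65), Elavl3, an RNA-binding protein of neurons (85), and Tssk3, a kinase of the testis (78).

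Where the set did have values, the medians of its probes lay on both sides of the pool. The median log2 ratio of a probe over its valued arrays had a median of 0.01 over the 192 probes, and it was below 0 for 86 of them. All 18 ribosomal protein probes had a median below 0, from -0.29 for Rplp1 to -0.00110 for Rps18. Some of these medians rest on few arrays, such as 10 for 1 probe of Rps18. Ribosomal protein probes outside the set were not compared in this way. Fabp4 was furthest from the pool of the probes named above. Its 86 values ran from -1.45 to 0.95 with a median of -0.44, and 81 of them lay below 0. For Plaat3, a phospholipase abundant in fat tissue, the 254 values ran from -1.22 to 0.72 with a median of -0.24, and 188 lay below 0. For Cfl1, which encodes the actin-severing protein cofilin, the 245 values ran from -1.08 to 2.06 with a median of -0.41. Ckm had 101 values, from -1.18 to 0.51 with a median of -0.02, and Mb had 242, from -1.75 to 0.79 with a median of -0.25. Mmel1, a membrane peptidase, was unlike the rest. Its 248 values spanned both limits of the scale, from -6.64 to 6.64, with an SD of 3.38. It and Epp13 were the only probes of the set with values at the limits, 54 in all.

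Blanks coincided between probes. The coincidence of a pair was measured by phi, the correlation of their blank indicators over arrays, which is 1 where both are blank on the same arrays and below 0 where blanks avoid each other. Over all 18336 pairs the median phi was 0.208, and 23.2% of pairs were below 0. The pairs fell into a simple pattern when the probes were divided into 2 groups by hierarchical clustering of phi. Within a larger group of 167 probes the median was 0.267 and 2.90% of pairs were below 0. Within a smaller group of 25 probes it was 0.361 and none of the 300 pairs was below 0. Between the groups it was -0.12, and 92.0% of the 4175 pairs were below 0. The groups were made from phi, so this split is a description of it.

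The larger group held 68 of the 69 probes in a gene list. All 30 muscle probes, all 14 respiratory chain probes and all 18 ribosomal protein probes were in it. Muscle probes coincided with ribosomal probes (median phi 0.246) about as they did with each other (0.227). The smaller group held Cfl1 as its only listed gene. Its other named genes included Gsk3b, Pax3, Fcnb, Elavl3, Rbfox1, Fgf18, Tssk3, Myo7b, Hsd17b3, Rfc4, Gnas and Lekr1. Its probes were blank on 65 to 220 arrays with a median of 85, against a median of 214 in the larger group. The lowest phi of a pair in which both probes had a current symbol was -0.33, between Apobec2, an RNA-editing family member of muscle, in the larger group and Rbfox1, a splicing factor, in the smaller.

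The highest phi between named genes was 0.928 for Cox6a2 and Pgam2. All 304 arrays blank for Cox6a2 were among the 306 blank for Pgam2. Tpi1 was blank on 303 of the arrays blank for Cox6a2, and Eno3 and Tnni2, blank on 293 and 289 arrays, shared 286. For 10 genes a pair of probes was in the set, and the blanks of these were nested. In the pair for Rpl9 all 122 blanks of one probe were among the 214 of the other, and in the pair for Rpl29 all 143 were among 231. The share of the less blank probe's blanks that fell on blanks of the other had a median of 99.3%, with Aldoa lowest at 72.2%. This share has to be read against the share of all arrays blank for the more blank probe. That was 67.1% for Rpl9, 72.4% for Rpl29, 44.5% for Psmb5 (98.7% contained) and 54.9% for Aldoa. For Fth1 (99.7%), Rplp1 (98.1%), Rps18 (96.9%) and Atp5k (96.2%) the nesting is nearly fixed by the number of blanks. Where both probes of a pair had values, these ran together, with r across arrays of 0.939 for Psmb5 (176 arrays), 0.885 for Rpl9 (105) and 0.537 for Aldoa (107).

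The promoters of Pgam2, Ckm and Rps18 are shown because Pgam2 was in the pair of named genes with the highest phi, and because the blanks of Ckm and Rps18 passed the test against muscle genes given further on. Each is the 250 bases before the gene's start from the RefSeq promoter table for GRCm38.p6, read 5′ to 3′ on the gene's strand. Capitals mark CANNTG, the E-box letters that myogenic factors can bind, which read the same on both strands.
Pgam2: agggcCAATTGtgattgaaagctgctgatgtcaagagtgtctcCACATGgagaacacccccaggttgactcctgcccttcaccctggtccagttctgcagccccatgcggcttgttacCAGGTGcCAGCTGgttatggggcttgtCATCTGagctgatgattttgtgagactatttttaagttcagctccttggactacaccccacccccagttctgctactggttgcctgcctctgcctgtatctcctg
Ckm: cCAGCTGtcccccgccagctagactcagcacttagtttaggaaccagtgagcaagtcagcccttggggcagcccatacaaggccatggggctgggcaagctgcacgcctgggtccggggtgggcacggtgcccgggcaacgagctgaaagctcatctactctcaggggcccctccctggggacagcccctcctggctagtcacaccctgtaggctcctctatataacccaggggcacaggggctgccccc
Rps18: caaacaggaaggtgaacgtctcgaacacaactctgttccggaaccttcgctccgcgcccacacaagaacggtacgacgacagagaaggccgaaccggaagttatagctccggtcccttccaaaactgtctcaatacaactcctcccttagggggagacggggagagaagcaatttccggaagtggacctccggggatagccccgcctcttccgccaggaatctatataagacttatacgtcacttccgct
They lie at chr11:5803797-5804046 (minus strand), chr7:19410844-19411093 (plus) and chr17:33955666-33955915 (minus). The Pgam2 window held 5 matches, the Ckm window 1 and the Rps18 window 0. Of the windows for genes of the set in the muscle lists, 29 of 35 (82.9%) held a match, counting 23 of 29 genes that were in the table and all their starts. Of those for the ribosomal proteins of the set 5 of 10 did, of those for its respiratory chain genes 6 of 12, and over all 32851 windows 66.2% did. The letters TATAAA, searched on both strands, were in none of these muscle, ribosomal or respiratory chain windows and in 12.4% of all windows. Only exact matches counted. Similar letters, as near the ends of the printed Ckm and Rps18 windows, did not, so the count does not show that a TATA element is absent. A match of letters is a description of the window and no evidence of binding.

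An array had values for between 18 and 176 of the 192 probes. The median was 76 and the quartiles were 50 and 101.5. The fewest were on the arrays of animals 38 and 337, with 18 each, and 345, with 21. The most were on those of animals 352 (176), 316 (164) and 167 (161). The SD over arrays was 34.5, against 5.71 if each probe were blank at its own rate independently of the others. Of the 167 probes of the larger group between 1 and 151 had a value, and of the 25 of the smaller group between 0 and 25 did. These counts ran against each other, with r = -0.380 and rho = -0.383 over 319 arrays. The groups were cut from phi of the same blanks, so a negative sign follows from how they were made. Blanks of probes outside the set numbered 0 to 694 per array with a median of 15, and 30 arrays had more than 100.

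The counts followed the animal numbers of the labels. Arrays of neighbouring numbers resembled each other, with r = 0.348 over 318 neighbouring pairs for the whole set, 0.376 for the larger group and 0.382 for the smaller. In bins of 20 numbers, chosen after the values were seen, the median count ran between 39 (numbers 321 to 340) and 100.5 (numbers 301 to 320), so adjacent bins held the lowest and the highest. The following stretches were picked for their counts after these were seen. Over the 8 arrays with numbers 31 to 40 the larger group had 1 to 52 values with a median of 3, while the smaller group had 15 to 25 with a median of 20. Over the 12 arrays from 141 to 153 the reverse held, with 56 to 135 values in the larger group (median 88) and 0 to 16 in the smaller (median 2). Over the 14 arrays from 231 to 245 the larger group had 6 to 76 values (median 19) and the smaller 16 to 25 (median 25). The median muscle score, defined in the next paragraph, was -0.36, -0.23 and 0.13 in these stretches, in the order given. The labels give no hybridization date or slide, so what the animal numbers stand for was not tested.

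Arrays with more values were not, on the whole, those low in muscle genes. The muscle score was the mean z-score of 46 genes of sarcomere structure and of excitation and contraction coupling, taken only from probes outside the set. It ran from -1.36 to 0.79. Against the number of values it gave r = -0.030 and rho = -0.00855 over 319 arrays, and r = -0.00125 without the 2 arrays farthest from the median score. A correlation of 0 has a standard error of 0.0561 at this number of arrays. The 33 arrays with the fewest values (18 to 34) had scores from -1.18 to 0.41 with a median of 0.04. The 32 arrays with the most (130 to 176) had scores from -1.17 to 0.64 with a median of 0.08, so the scores of these sets of arrays overlapped over nearly their whole range. The array lowest in muscle genes, of animal 51, had 124 values and the highest, of animal 21, had 85.

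Within 4 runs of consecutive animal numbers r was 0.134 (animals 1 to 88), 0.00969 (89 to 192), -0.253 (193 to 276) and -0.024 (277 to 359). Of these runs only the third gave a relation of some size, with more values on arrays lower in muscle genes. Within the 18 bins of 20 numbers it ran from -0.476 to 0.317 with a median of -0.011 and was above 0 in 8. The lymphocyte score divided the arrays in 2 clusters, and r was -0.00516 over the 263 arrays low in it and -0.048 over the 56 high in it. The muscle score itself was not taken as clustered, since its best split put means 3.79 within-group SDs apart. On the sides of that split r was -0.236 over the 57 arrays low in it and 0.00748 over the 262 high in it. Counting only the 30 probes of the muscle lists, r was -0.110. Because the count is a score over probes chosen with earlier results known, no p is given for these values.

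Other scores had small values of r with the count. It had r = 0.014 with the slow fibre score, -0.013 with the energy enzyme score, -0.076 with the respiratory chain score, 0.058 with the ribosomal protein score and 0.019 with the adipocyte score. Of 4 measures of the array itself, the median ratio gave r = -0.011. The other measures fell in clusters with few arrays in the upper one, so r is given within the clusters. In the lower clusters it was 0.205 for the SD of an array's ratios (300 arrays), 0.233 for the number of values at the limits of the scale (304 arrays) and -0.037 for the number of blanks outside the set (302 arrays), and in the upper ones 0.417 (19 arrays), 0.557 (15 arrays) and 0.073 (17 arrays). The groups of probes differed here. For the count over the smaller group the same values were 0.012, -0.025 and -0.482 in the lower clusters and -0.305, -0.393 and -0.105 in the upper ones. Arrays of the lower cluster with more blanks elsewhere thus had fewer values in the smaller group. That relation was negative in all 4 runs, from -0.361 to -0.539 over all arrays of a run. For the larger group the values in the lower clusters were 0.193, 0.227 and 0.055.

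No probe outside the set passed the threshold against the number of values. The limma fit of each of 23190 probes on the count called 0 (0.0%) at an adjusted p under 0.05. At an unadjusted p under 0.05 there were 2534 probes (10.9%). The smallest adjusted p was 0.0647, for Muc3, a membrane mucin, with a slope of 0.15 (SE 0.03) in log2 units per SD of the count. Bzw1 and Atp9b followed with adjusted p of 0.0716 in the limma fit and slopes of -0.04 and -0.03. With quantile normalization limma called 2 probes higher and 6 lower. In simulated data a slope of 0.2 SD was recovered for 50% of probes and 1 of 0.4 SD for 100%. There 200 probes were changed at once, and the adjustment is less strict where many are changed. These shares are therefore no measure of the power in these data. The muscle lists had median slopes near 0, with -0.00958 for the 26 sarcomere structure probes, -0.00347 for the 24 of excitation and contraction coupling and 0.00895 for the 73 energy enzyme probes, beside -0.000180 for all probes. The 19 lymphocyte probes had a median slope of 0.04 and the 13 adipocyte probes 0.00961.

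Single probes of the set were related to the muscle score. The blank indicator of every probe of the table with at least 10 blanks and 10 values, 481 in all and 178 of them in the set, was tested against the score with a permutation test of 100000 resamples and Benjamini-Hochberg adjustment. It called 3 probes (0.624% of those tested), all of them in the set. At an unadjusted p under 0.05 there were 46. Plaat3 was blank on arrays low in muscle genes (r = -0.270, adjusted p = 0.00481, permutation test). Ckm (r = 0.201) and 1 probe of Rps18 (r = 0.223) were blank on arrays high in them, each at an adjusted p of 0.0497 in the permutation test. The Rps18 value rests on 10 valued arrays, and the other Rps18 probe of the set did not pass (r = 0.115, adjusted p = 0.475, permutation test). With array medians subtracted, and with the score from probes valued on 99% of arrays, only Plaat3 passed.

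Since blanks coincided so widely, the relation was also computed with the number of other blank probes of the set on the array held fixed, an analysis chosen after the data were seen. This partial r called 9 of 481 probes (1.87%), 8 of them in the set. Ckm had a partial r of 0.232 and Adssl1 of 0.227, each at an adjusted p of 0.00601 in the permutation test. Atp5j2, an ATP synthase subunit, followed with 0.219, the same Rps18 probe with 0.225 and the more often blank Aldoa probe with 0.196. On the other side were Plaat3 (-0.303) and Fabp4 (-0.188). Without the 2 arrays farthest from the median score, Ckm had 0.223, Rps18 0.189 and Plaat3 -0.314, and the partial rho of Ckm was 0.171. The scores of blank and valued arrays overlapped almost completely. For Ckm the 218 blank arrays had muscle scores from -1.30 to 0.71 with a median of 0.10, and the 101 valued arrays from -1.36 to 0.79 with a median of 0.04. Along animal numbers these relations differed in how well they held. With the 18 bins of numbers held fixed as well, the value was 0.135 for Ckm, 0.156 for Adssl1 and -0.202 for Plaat3, each with the same sign in all 4 runs. For Aldoa it was 0.020, with the same sign in 2 of 4 runs, and for Atp5j2 0.088, with the same sign in 3. For the Rps18 probe it was 0.196, but only 2 runs gave a partial r. That was 0.415 in the first run and 0.016 in the last, and the partial rho over all arrays was 0.150. The p values treat arrays as exchangeable, although neighbouring animal numbers resembled each other.

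The largest relation of any blank was that of Fabp4 with the other adipocyte genes. Fabp4 was blank on arrays high in the adipocyte score, which holds 11 genes and not Fabp4 itself. The partial r was 0.463, at an adjusted p of 0.0012 in the permutation test, where 100000 resamples can give an unadjusted p no smaller than 1e-05, the value it had. The 233 blank arrays had scores from -1.04 to 1.87 with a median of 0.08, and the 86 valued arrays from -1.34 to 1.80 with a median of -0.58. The ranges overlapped, but the medians lay far apart. It was 0.487 without the 2 arrays farthest from the median score, and the partial rho was 0.536. Within the 4 runs the value was 0.304, 0.472, 0.573 and 0.637, and it was 0.450 with the 18 bins held fixed. Its measured values ran the same way, with r = 0.589 against the score over the 86 valued arrays. Plaat3 had a partial r of 0.322 with the adipocyte score, at the same adjusted p in the permutation test, and 0.218 with the bins held fixed. Ckm ran the other way, with -0.252 and -0.156. In all, 13 of 481 probes (2.7%) were called against this score, 6 of them in the set.

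Fibre type and ribosomal scores gave fewer calls. Actn2, an actinin of all fibre types, was blank on arrays high in the slow fibre score, with a partial r of 0.333 at an adjusted p of 0.00481 in the permutation test. Its 210 blank arrays had slow fibre scores from -2.13 to 1.46 with a median of 0.26, and its 109 valued arrays from -2.90 to 1.62 with a median of -0.19. The value was 0.319 without the 2 farthest arrays and 0.249 with the bins held fixed. In all, 3 of 481 probes (0.624%) passed for this score, 2 of them in the set. Against the ribosomal protein score, built from 45 genes without the probes of the set, 6 of 481 (1.25%) passed, all in the set. The named ones were Rpl27 (0.224), the more often blank Rpl9 probe (0.215) and, in the opposite direction, the fatty acid oxidation enzyme Acadvl (-0.218). With the bins held fixed these were 0.228, 0.209 and -0.217. Other probes of Rpl27 and Rpl9 are part of this score, and without the gene itself the partial r was 0.222 for Rpl27 and 0.209 for Rpl9. Of the 16 ribosomal protein probes tested, 14 had a partial r above 0, with a median of 0.089, beside a median of -0.025 and 173 of 481 above 0 for all probes tested. Of the 8 sarcomere structure probes tested, 7 had a partial r above 0 with the muscle score, with a median of 0.049, and none passed. Over all probes tested 245 of 481 were above 0. Of the fast contractile probes 4 of 6 were above 0 (median 0.014) and of the energy enzyme probes 7 of 12 (median 0.085). The lymphocyte score divided the arrays in 2 clusters, so no value over all arrays is given for it.

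Other probes of the same genes, which had values on most arrays, gave a second view of the blanks. There were 156 pairs of a probe in the set and a probe outside it for the same gene, from 32 genes. In 39 pairs, from 16 genes, the log2 ratios of both probes correlated across arrays at r above 0.5, and in 33 of these the other probe was higher where the probe in the set was blank, by a partial r above 0. The median partial r of the 39 pairs was 0.147, and the plain r had a median of 0.069 and was above 0 in 32. Among the 80 pairs at or below that r the partial r was above 0 in 49, with a median of 0.016. The other 37 pairs had fewer than 30 arrays with both values, and over all 156 pairs the median was 0.023 for the partial and 0.011 for the plain r. Pairs share genes and arrays, so no test is given. Mpc1, a subunit of the mitochondrial pyruvate carrier, had the highest values. Its other probes correlated with it at r = 0.829 and 0.762. The first had a median log2 ratio of 0.00903 on the arrays where the blank-prone probe had no value and -0.11 on those where it had one, and the second 0.03 and -0.16. The partial r were 0.301 and 0.326. For Rpl27 the other probes that correlated with it above 0.5 had partial r of 0.188 each, and for Tpt1 0.218 and 0.145. The less often blank probe of Aldoa and that of Rps6 went the other way by partial r. By median log2 ratio the other probes of Rps6 above 0.5 did not. Their medians were -0.085 and -0.077 where it was blank and -0.103 and -0.106 where it was valued. The 3 other probes of Aldoa, set against its less often blank probe, had partial r of -0.184, -0.178 and -0.151, the first being the lowest of the 39 pairs, and those of Rps6 above 0.5 had -0.139 and -0.110. With the more often blank Aldoa probe the same 3 correlated less, at r of 0.237, 0.209 and 0.440. Their median log2 ratios were 0.08, 0.11 and 0.10 where it was blank and 0.05, 0.06 and 0.09 where it was valued.

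The values that the set did have were also set against the muscle score. In the limma fit of log2 ratios on the score, 159 of the 192 probes had the 30 values required. Of these 102 had a higher and 22 a lower ratio with a higher score, at an adjusted p under 0.05. Over all 23299 probes counted, 53.0% were higher and 23.0% lower, 76.0% in all. After subtraction of the array medians the set had 82 higher and 26 lower probes, beside 8520 and 7252 of all probes, so the split over all probes depends on the centring. The median slope of all probes was 0.03 log2 units per SD of the score, and 0.00533 with medians subtracted. Of the 19 muscle list probes fitted 18 were higher and none lower, with a median slope of 0.17. The score is itself made of muscle genes, and energy enzyme probes outside the set ran the same way. Of these 73 probes 66 were higher and 2 lower, with a median slope of 0.15. Atp2a1 had a slope of 0.24 (SE 0.03, 131 arrays), Ttn 0.24 (SE 0.02, 245 arrays), Ldb3 0.22 (SE 0.02, 252 arrays) and Ckm 0.16 (SE 0.02, 101 arrays), all with an adjusted p below the threshold in limma. Other probes of Ttn are part of the score, and without Ttn in it the slope was 0.23.

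Of the 9 respiratory chain probes fitted 7 were higher, with a median slope of 0.08, and 3 were with array medians subtracted. Of the 16 respiratory chain probes outside the set 13 were higher and 2 lower, with a median of 0.10. Of the 13 ribosomal protein probes fitted none was higher and 10 were lower, with a median of -0.12, beside -0.05 for the 173 ribosomal probes outside the set. Rps7 had a slope of -0.17 (SE 0.02) and Rps6 of -0.15 (SE 0.02). Outside the lists, Pdk4, a kinase that restrains pyruvate oxidation, had a slope of 0.22 (SE 0.03), Slc2a4 0.17 (SE 0.03) and Cebpb 0.19 (SE 0.03). Cfl1, from the list of common abundant genes, had -0.40 (SE 0.02). The 56 arrays high in the lymphocyte score had a median muscle score of -0.68, against 0.15 on the 263 low in it. The 19 lymphocyte probes had a median slope of -0.73 on the muscle score. Slopes within either set of arrays were not fitted. In bulk muscle, fewer fibres, less RNA per fibre and more of another tissue cannot be told apart.

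For some scores the sign of the relation of a probe's blank was, more often than not, that of its measured values. Over the 159 probes of the set with enough values it was the same for 104 (65.4%) with the muscle score and 96 (60.4%) with the adipocyte score. It was the same for 105 (66.0%) with the ribosomal protein score but for only 80 (50.3%) with the slow fibre score. No share over probes outside the set is given for comparison. The sign was the same for all 7 probes that passed against the muscle score and all 6 against the adipocyte score that had enough values. Those probes were picked by the size of the relation of their blanks. Blanks and values come from the same arrays and many probes share arrays and genes, so these counts are descriptions.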

How the data were processed

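Muscle RNA of F2 animals was read on 319 2-colour arrays, which formed 1 group. The pair of arrays that share the number 227 were both kept and treated as separate samples. One of them is listed out of order, among samples of higher animal numbers. Both were placed by the number 227 in runs, bins and neighbouring pairs, and whether that label is right was not tested. The array titled 399 has 339 as its source name, which served as its number. The authors deposited 1 log10 ratio per probe and array. The labels state neither the base nor the direction. The base was read from the limits of -2 and 2 in the deposited values, a 100-fold ratio, and the direction from Eif2s3y and from Kdm5d, which lay at -2.77 on 165 arrays and 0.92 on 154. Pairs of arrays correlated at a median r of 0.270, and 3735 of 50721 pairs lay below -0.3, with the lowest at -0.601. The labels name the dyes and F2 animals can differ in either direction, so the direction was kept. Array SDs ran from 0.213 to 1.08. Scanner, background correction, normalization and the reason for a blank are not given in the sources used here. Arrays give no read depth, and their number limits the precision.

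Values were multiplied to log2 and otherwise used as deposited. Names came from the platform's probe table, updated by gene ID to RefSeq GRCm38.p6. There was 1 symbol for 13639 probes, while 48 had several and 9695 had none. Probe sequences were not used here. The set of probes and the 20 gene lists were chosen with earlier results of these data known. Scores are means of z-scored genes, from probes outside the set that were measured on 80% of arrays or more. A score was taken as clustered where its best split, with at least 15 arrays a side, put means over 4 within-group SDs apart. Groups of blank patterns came from hierarchical clustering into 2 clusters. The named genes were to be up to 8 probes per class, those blank most often, with those of largest r that passed. For the energy enzyme, sarcomere structure and ribosomal lists more were named, and these, the lower examples of other classes and the smallest p of the fit on the count, where none passed, were chosen after their values were seen. Settings tried in place of the deposited ones were medians subtracted, quantile normalization, other minimums of values, runs of animal numbers as a block, and arrays left out whose SD lay over 3 scaled MADs from the median.

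Permutation tests were two-sided. The fits used lmFit and eBayes of limma 3.58.1 in R 4.3.3. Other steps used Python 3.11.15, numpy 2.4.6 and pandas 2.3.3. Each array is 1 sample, and p values measure the spread between animals together with that between arrays. Both tests were tested on simulated data. For the permutation step 200 of 400 simulated probes were changed, and it called 93% of these and 4.5% of the unchanged ones. Far fewer of the real probes passed, and the adjustment is less strict where many are changed. The 93% is therefore no measure of the power in these data. In the fit on the count 3.85% of calls were false among 23190 probes.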

Additional observations from a re-analysis of the deposited data

How the results depend on the processing

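The r of the number of values with the muscle score, -0.030 as reported, moved to -0.110 when only the muscle list probes were counted and turned to 0.037 for the smaller group of blank patterns, an alternative added after the data were seen. Without one of the pair of arrays numbered 227, also added, it was -0.027. A threshold of 50% of arrays left 112 probes and 1 of 10% gave 262. Calls of blanks against the muscle score were few and moved with the setting. Those with positive r, 2 as reported, numbered 0 with array medians subtracted, 0 with the score from probes valued on 99% of arrays, 4 with quantile normalization, 4 without the 20 arrays of outlying SD and 6 with the other blanks held fixed. Those with negative r, 1 as reported, numbered 2 with quantile normalization, 2 without the arrays of outlying SD and 3 with the other blanks held fixed. The cause was not tested. In the fit on the count, limma called 2 higher and 6 lower with quantile normalization, and 0 with medians subtracted, the stricter minimum of values, runs as a block, or either set of arrays left out. No paired analysis was possible because there was 1 group. Relations of this size (r about 0.2) are small beside the overlap between arrays.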
